A study of Mus musculus with 30 samples.

Results

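The response of agonist-treated mouse macrophages to 2 h of lipopolysaccharide (LPS), a component of the outer membrane of Gram-negative bacteria, is described here across genes. It rests on 6 of the 30 libraries of the series: cultures M2, M3 and M4, each with a library at 2 h and a library at 0 h, compared within culture. All were bone marrow-derived macrophages of WT C57Bl/6 origin, grown with M-CSF. The 2 h group had 2 h of 1 µM metaproterenol hemisulfate (MPH), a β2 adrenergic agonist, and then 2 h of LPS, labelled as 100 ng/µL. The 0 h group had the same 2 h of MPH and no LPS. Both groups had the agonist, but the 2 h group was collected 2 h later after it was added, so LPS and the time since MPH cannot be told apart in the difference, which is called the LPS response under MPH for short. For the question of where this response differs from that without agonist, the 2 h and 0 h libraries of 4 cultures given the vehicle DMSO (D3, D4, D5 and D6) were set beside them. M2, M3 and M4 are culture names and not polarization states. The labels do not say whether the cultures came from separate mice, so p-values measure the spread between these cultures only.

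LPS is bound by CD14 and MD-2 and handed to the receptor TLR4, whose adaptors MyD88 and TRIF lead to the transcription factors NF-kB, AP-1 and IRF3. These switch on cytokine and chemokine genes within hours, together with genes that then shut the pathway down. Agonists such as MPH act through Gs, adenylyl cyclase and cyclic AMP (cAMP), and the cAMP-dependent kinase PKA phosphorylates CREB, which drives genes such as Nr4a2, Sik1 and Crem in many cell types.

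Expression was given as RPKM, reads scaled by transcript length and sequencing depth, with approximate depths of 14.2, 30.9 and 26.3 M reads for M2, M3 and M4 at 2 h and 35.9, 16.0 and 59.6 M reads at 0 h, worked out from the lowest values. For a 2 kb transcript, 1 read counted for 0.0084 to 0.0352 RPKM, and the table holds no value of 0, so values near this level may stand for no read. All 8 macrophage markers reached 1 RPKM, with a summed level of 4050 to 6110 RPKM at 2 h and 4390 to 6710 RPKM at 0 h. B cell, T and NK cell, stromal, erythroid and mast, and dendritic cell markers had no tested member, and their sums were at most 1.49 RPKM in any of the 6 libraries. The 8 neutrophil markers summed to 61.9 to 90.1 RPKM at 2 h and 40.6 to 54.5 RPKM at 0 h, of which S100a8 (28.8, 28.7 and 26.4 RPKM at 2 h, 23.1, 14.1 and 16.9 at 0 h) and S100a9 were called higher, with log2 differences of 0.65 and 0.65. Ngp, Camp and Ltf, on the same list, were tested and not called. Ngp stood at 9.51, 4.18 and 11.9 RPKM in M2, M3 and M4 at 2 h, against 5.4, 4.19 and 7.49 RPKM at 0 h. Camp and Ltf stayed at or below 2.88 RPKM. Elane, Mpo and Cxcr2, which define neutrophils and their precursors, stayed at or below 1.49 RPKM. The part of such cells in the results was not tested. In bulk RNA, fewer cells of a type and less RNA per cell cannot be told apart. Cultures M3 and M2 stood apart. The M3 0 h library lay at least 2-fold above both other 0 h libraries in 352 genes, against 24 for M2 and 120 for M4. At 2 h the corresponding counts were 72 for M2, 254 for M3 and 62 for M4. M2 stood apart in the other direction, with values at least 2-fold below both other cultures in 294 genes at 2 h and 196 at 0 h, against 93 and 64 for M3 and 23 and 26 for M4.

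Within 2 h of LPS some genes of the agonist-treated macrophages rose by very large factors, and the largest falls were smaller. Falls outnumbered rises on RPKM values, but the numbers were nearly even after median-of-ratios scaling. Of 9572 genes tested with limma on log2(RPKM + 0.5), 4496 (47.0%) passed an adjusted p of 0.05, 1040 higher (10.9%) and 3456 lower (36.1%). Of these, 906 (9.47%) changed at least 2-fold, with 495 rises (5.17%) and 411 falls (4.29%). Of the rises 225 were at least 2 on the log2 scale, 44 at least 4 and 15 at least 6, whereas 39 falls reached 2 and 5 reached 3. The 495 rises together held 10.6, 14.5 and 14.4% of all summed RPKM in M2, M3 and M4 at 2 h, against 1.89, 2.46 and 1.82% at 0 h. All RPKM values are shares of a library, and the median of all genes tested was -0.23. After median-of-ratios scaling that median was -0.03, and 1498 genes were higher (15.7%) and 1462 lower (15.3%) of 9553 tested. Of the larger changes 493 of the 495 rises and 401 of the 411 falls were also called with that scaling, whereas 1058 of the 3045 smaller falls were. Without the pairing of libraries by culture (no replicate block) 866 genes passed, 384 higher and 482 lower. Without M3 the count was 2739 and without M4 1736, and without M2 it stayed within 1.5 times of 4496. The genes just inside and just outside the threshold were Apoo (-0.40) and Kri1 (-0.32). Besides Apoo, of the genes named here Cxcl14, Crem, Junb, Nr1d2, Hpgds, Lss, Rxra, S100a8, Nr4a1, Osm and Tlr4 lost their call when M4 was left out, and Cxcl14 also without M2 or M3, and Crem, Junb and Nr1d2 also without M3.

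**Figure D1:**
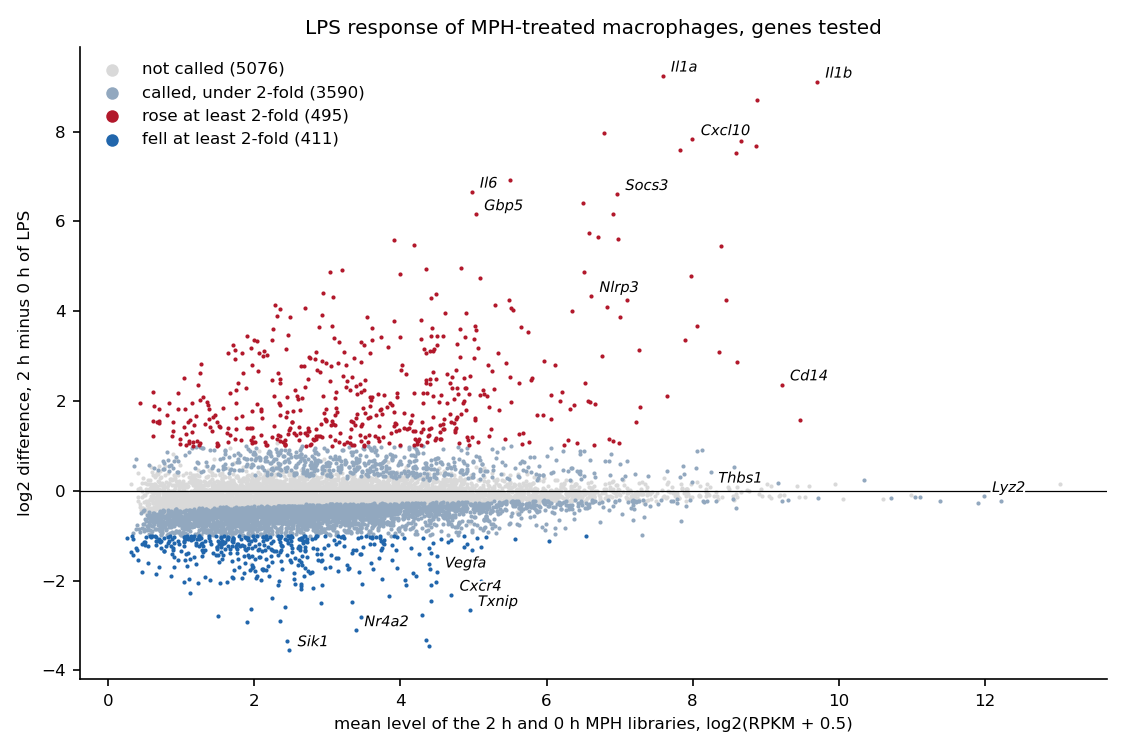
Log2 difference of 2 h minus 0 h of LPS (y axis) against the mean level of both times, log2(RPKM + 0.5) (x axis), for 9572 genes tested in MPH cultures M2, M3 and M4, 1 point per gene. With 0.5 RPKM added before the logarithm, the 495 rises reach beyond 9 on the log2 scale, and the deepest of the 411 falls is -3.55.

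The 3 cultures were also compared with each other. The log2 differences of M2 with M3, M2 with M4 and M3 with M4 correlated across the genes tested at 0.83, 0.89 and 0.91, a description over genes that share libraries. Changes of at least 2-fold upward numbered 441 in M2, 541 in M3 and 569 in M4, and 348 genes had them in all 3. Downward there were 265, 667 and 662, and 178 in all 3. M2 thus had the fewest falls, and its 2 h library was the shallowest of the 6. The 2 h and 0 h values did not overlap in 3186 genes (33.3%), with 759 higher (7.93%) and 2427 lower (25.4%).

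Inflammatory cytokine genes gave the 2 largest rises. Values in parentheses after a gene are log2 differences of 2 h minus 0 h under MPH, and levels are in the order M2, M3 and M4. Each list count below is to be read beside the 10.9% of all genes tested that rose and the 36.1% that fell. Il1a, which encodes IL-1α, stood at 419, 257 and 476 RPKM at 2 h in M2, M3 and M4, against 0.0989, 0.189 and 0.0595 RPKM at 0 h. Every 2 h library lay above 250 RPKM, and every 0 h library below 0.2 RPKM. Its log2 difference was 9.24 (SE 0.22, adjusted p = 5.61e-06), the largest of all with 0.5 added before the logarithm. Its 0 h values lay below this 0.5, so the size and rank of the rise depend on the value added. Il1b, which encodes IL-1β, stood at 1386, 1810.0 and 1794 RPKM at 2 h and 1.22, 9.48 and 1.06 RPKM at 0 h, a difference of 9.11 (SE 0.45). At 2 h it had the highest mean of the 495 rises, 1663 ± 240.1 RPKM (SD, n = 3), and M3 had more Il1b at 0 h than M2 and M4. Il6, a driver of the acute-phase response, was even across cultures, with 65.4, 55.2 and 64.5 RPKM at 2 h and 0.129, 0.173 and 0.0465 RPKM at 0 h (6.66). Tnf, the gene of tumour necrosis factor, stood at 848, 302 and 1162 RPKM at 2 h and 1.48, 3.92 and 4.98 RPKM at 0 h (7.52, SE 0.43). M3 was the lowest at 2 h and stood far above every 0 h value.

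The gene of the anti-inflammatory cytokine IL-10 rose as well. Il10 was at 22.4, 29.7 and 34.7 RPKM at 2 h and 0.0213, 0.334 and 0.0129 RPKM at 0 h, or 5.58 (SE 0.19). In all, 14 of 16 tested cytokine genes rose, 1 fell and 1 was not called, with a median of 3.90 against -0.23 over all genes. Il23a (4.91), which encodes a subunit of IL-23, Il1rn (4.03), which encodes the IL-1 receptor antagonist, and the colony-stimulating factor gene Csf1 (3.77) were among the 14. The subunit gene Il12b rose unevenly, with 1.69, 25.6 and 20.3 RPKM at 2 h, against 0.0223, 0.0498 and 0.0268 RPKM at 0 h, so M2 stood far below M3 and M4 at 2 h. Osm, which encodes oncostatin M, was the member that fell (-1.19, not called after median-of-ratios scaling). Its values were 17.2, 2.39 and 7.77 RPKM at 2 h and 23.3, 12.8 and 15.3 RPKM at 0 h, and the groups overlapped. Under DMSO Osm was called higher (0.86), the only one of the 411 falls with that direction there, and the difference between the responses was not called (adjusted p = 0.072). Csf2 did not pass the filter on low values and is listed at 2.59, 0.751 and 4.05 RPKM at 2 h, against 0.027, 0.0603 and 0.0162 RPKM at 0 h.

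**Figure D2:**
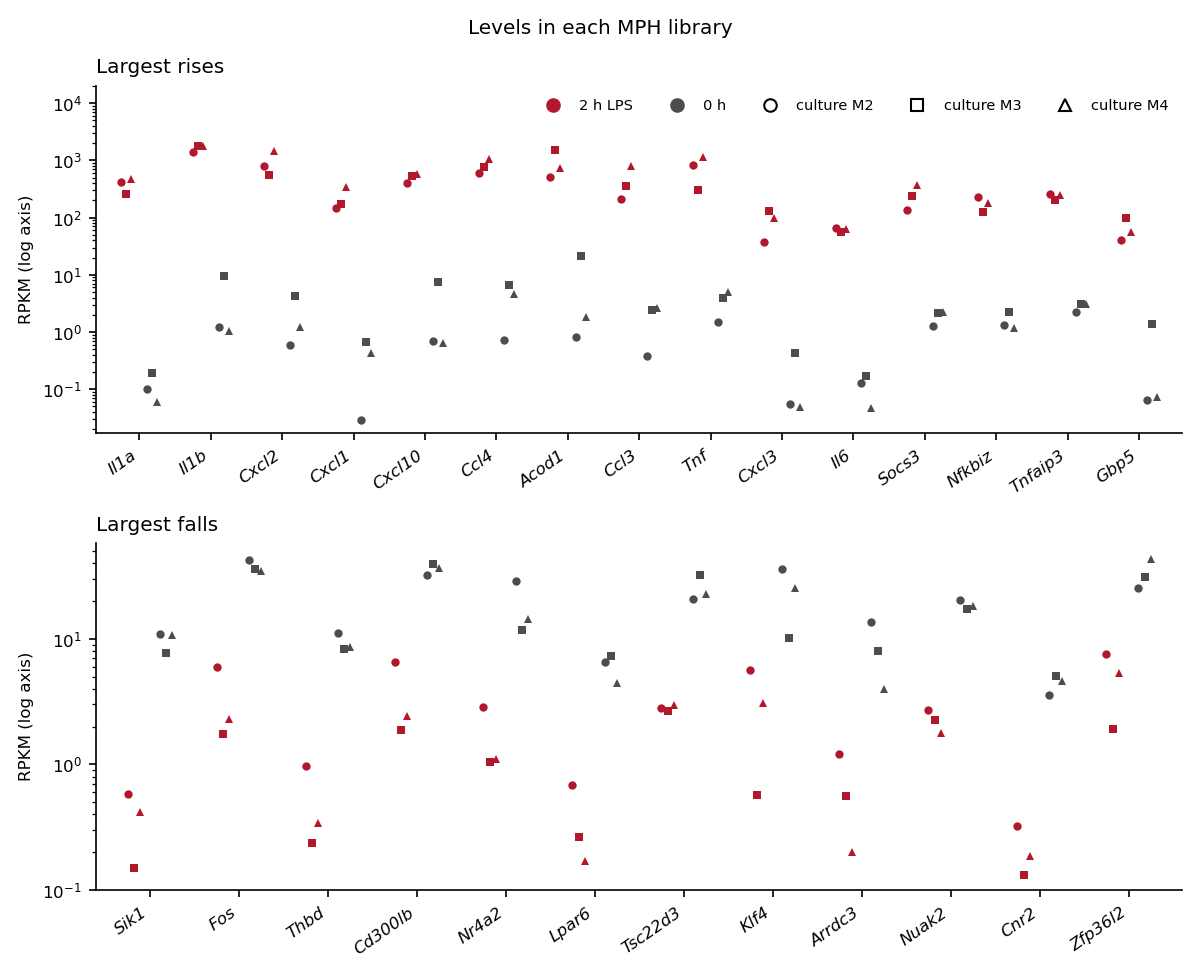
RPKM on a log axis in each MPH library for the 15 largest rises (upper panel) and the 12 largest falls (lower panel), with 2 h points left of 0 h points and a symbol for each culture. In all 27 genes the 2 h and 0 h libraries do not overlap, and M3 (squares) is often the highest at 0 h among the rises.

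Chemokine genes followed the cytokines, with 12 of 16 tested members higher, 1 lower and a median of 4.25. Cxcl1, Cxcl2 and Cxcl3 encode attractants of neutrophils. Cxcl2 had 785, 563 and 1474 RPKM at 2 h and 0.592, 4.32 and 1.22 RPKM at 0 h (8.70, SE 0.51), Cxcl1 rose by 7.96 and Cxcl3 by 6.91. Ccl3 and Ccl4 encode attractants of monocytes and T cells. Ccl3 reached 214, 353 and 784 RPKM at 2 h, against 0.388, 2.44 and 2.61 RPKM at 0 h (7.60), and Ccl4 reached 603, 761 and 1060.0 RPKM at 2 h, against 0.717, 6.60 and 4.60 RPKM at 0 h (7.80). Cxcl10, an interferon-inducible attractant of T cells, stood at 404, 531 and 588 RPKM at 2 h, against 0.684, 7.48 and 0.641 RPKM at 0 h, a difference of 7.83 (SE 0.50, adjusted p = 0.000108). M2 was the lowest at 0 h in Cxcl2, Ccl3 and Ccl4, and no 0 h value came near a 2 h value. The fall was that of Cxcl14 (-0.38), which was not called after median-of-ratios scaling.

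Among chemoattractant receptors the direction was mixed, with 3 of 8 higher and 4 lower. Ccrl2, a receptor that binds chemerin without signalling, rose to 152, 160.2 and 217 RPKM at 2 h, against 7.16, 6.65 and 3.31 RPKM at 0 h (4.88), and C5ar1, the receptor for complement C5a, rose by 1.03 with overlapping groups. Cxcr4, the receptor that retains leukocytes in marrow, fell to 17.4, 2.29 and 8.38 RPKM at 2 h, against 63.0, 20.3 and 41.0 RPKM at 0 h (-2.32). The fractalkine receptor gene Cx3cr1 fell to 2.33, 2.01 and 0.873 RPKM at 2 h, against 9.44, 13.8 and 3.58 RPKM at 0 h (-1.97). For both falls each culture was lower at 2 h than at 0 h, and the groups did not overlap.

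Genes that restrain NF-kB rose in nearly every case: 12 of 14 tested inhibitors and feedback genes were higher, 0 were lower, and the median was 2.47. Nfkbia encodes IkBα, which holds NF-kB in the cytoplasm, and stood at 415, 429 and 616 RPKM at 2 h and 8.46, 26.0 and 21.9 RPKM at 0 h (4.78). Tnfaip3, the gene of the ubiquitin-editing enzyme A20, had 259, 204 and 248 RPKM at 2 h and 2.22, 3.15 and 3.12 RPKM at 0 h (6.16, SE 0.15). The 3 cultures lay close together at each time in Tnfaip3 and less so in Nfkbia, where M2 was the lowest at 0 h. Nfkbiz (6.42), which encodes IkBζ, a nuclear co-activator of secondary response genes, Tnip1 (2.99), an A20-binding partner, and Tnfaip2 (2.86) rose too, while Cyld (-0.03) and Otud7b (0.26) were not called. Of 12 NF-kB subunit and IKK genes 9 rose and 1 fell (0 fell after median-of-ratios scaling), with a median of 1.72. Nfkb1 (2.40), Nfkb2 (2.50), Relb (2.49) and the kinase gene Ikbke (2.40) rose more than Rela (1.13), and the kinase gene Chuk (0.02) was not called.

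Promoters of Nfkbia and Cxcl2 are shown because their genes were among the strong rises and carry a match to the NF-kB consensus. The bases are the 250 upstream of the first listed RefSeq start (GRCm38.p6), Nfkbia at chr12:55492648-55492897 on the minus strand and Cxcl2 at chr5:90903649-90903898 on the plus strand. Capitals mark the match, at bases -29 to -20 in Nfkbia and in 2 overlapping matches from -97 to -87 in Cxcl2.
Nfkbia: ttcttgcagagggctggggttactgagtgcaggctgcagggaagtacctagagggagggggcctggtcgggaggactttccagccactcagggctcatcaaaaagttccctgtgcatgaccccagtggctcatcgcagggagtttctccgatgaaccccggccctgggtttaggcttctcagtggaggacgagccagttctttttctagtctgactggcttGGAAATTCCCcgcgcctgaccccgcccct
Cxcl2: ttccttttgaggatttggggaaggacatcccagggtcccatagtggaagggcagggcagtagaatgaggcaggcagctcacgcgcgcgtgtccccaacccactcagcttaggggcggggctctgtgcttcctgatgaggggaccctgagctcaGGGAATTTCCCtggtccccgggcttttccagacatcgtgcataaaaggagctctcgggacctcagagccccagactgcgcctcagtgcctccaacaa
Across genes, 399 of the 495 rises (80.6%) and 7768 of the 9572 genes tested (81.2%) had such a window in the table. The NF-kB consensus, searched on both strands, was in 16.0% of the windows of rises, 8.55% of those of all genes tested and 7.01% of the 27025 in the table. The interferon-stimulated response element was in 6.77% of rises and 2.73% of genes tested, and the AP-1 site TGANTCA in 8.52% of rises and 4.27% of genes tested. The TATA box TATAAA was in 10.0% of rises and 5.95% of genes tested, but over all windows in the table it was more frequent than in rises. The cAMP response element TGACGTCA was in 2.01% of rises and 2.87% of genes tested. Over all windows in the table the interferon-stimulated response element was in 3.04%, the AP-1 site in 6.87% and TGACGTCA in 1.62%. GC content was close, with medians of 59.6% and 60.0%. These are matches of letters and not measured binding, and for the falls the comparison is void because under 80% (79.6%) had a window.

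Feedback through cytokine signalling and mRNA decay also rose. Socs3, an inhibitor of JAK signalling, stood at 134, 235 and 373 RPKM at 2 h and 1.25, 2.17 and 2.23 RPKM at 0 h (6.61, SE 0.16). Zc3h12a (2.95), which encodes the RNase regnase-1, its relative Zc3h12c (3.16) and the growth-restraining gene Btg1 (1.37) were higher. Zfp36l2, which encodes a decay factor of the tristetraprolin family, went the other way, with 7.53, 1.90 and 5.35 RPKM at 2 h and 25.6, 30.8 and 43.4 RPKM at 0 h (-2.77). Of 15 tested genes 8 rose, 1 fell and 6 were not called. Zfp36, which encodes tristetraprolin itself, was among those not called, at 46.4, 49.8 and 45.0 RPKM at 2 h and 37.7, 27.8 and 45.2 RPKM at 0 h (0.37, and called higher after median-of-ratios scaling). A list of phosphatases that dampen MAP kinases and of Sprouty-type inhibitors had 12 tested members. Of these 6 were higher and 2 lower (1 lower after median-of-ratios scaling). Among the rises were Dusp16 (3.08), Dusp4 (2.64), the Ras-pathway inhibitor gene Spred1 (2.33) and Dusp1 (1.28). Dusp5 fell by 0.99 on the log2 scale.

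Interferon-stimulated genes rose in 16 of 29 tested members and fell in 0, with a median of 0.89. The guanylate-binding protein gene Gbp5 had 40.0, 96.5 and 55.2 RPKM at 2 h and 0.0646, 1.36 and 0.0723 RPKM at 0 h (6.16, SE 0.17), Gbp2 rose by 3.43, Gbp3 by 2.85 and the RNA sensor gene Ifih1 by 3.20. The Gbp genes resemble each other, and reads shared between copies make their single values uncertain. Culture M3 stood apart here at 0 h. Ifit1 had 29.6, 57.9 and 26.9 RPKM at 2 h and 0.201, 9.85 and 0.382 RPKM at 0 h (4.29, SE 0.51), and Isg15 had 52.7, 128 and 81.2 RPKM at 2 h and 1.88, 53.2 and 2.26 RPKM at 0 h (3.54, SE 0.63). In both genes the 0 h library of M3 stood far above those of M2 and M4, and in Isg15 it overlapped with the 2 h values. The median of this list was 0.56 in M2, 0.31 in M3 and 1.63 in M4. Of 18 interferon and IRF genes 5 rose and 2 fell. The kinase gene Jak2 (2.29) and the transcription factor genes Irf4 (3.35, SE 0.40) and Irf1 (1.98) rose, and Irf8, a lineage factor of monocytes, fell (-1.72). Ifnb1, which encodes interferon-β, did not pass the filter on low values and is listed at 18.4, 0.924 and 3.61 RPKM at 2 h, against 0.0362, 0.162 and 0.0218 RPKM at 0 h. M2 was the highest of the 3 cultures at 2 h, and all 3 were above their 0 h values.

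Receptors and adaptors of the LPS pathway moved unequally, with 8 of 23 higher and 6 lower (2 lower after median-of-ratios scaling). Cd14 rose to 828, 1006 and 1164 RPKM at 2 h, against 205, 165 and 207 RPKM at 0 h (2.37, SE 0.11), and Tlr2, a receptor for bacterial lipoproteins, to 253, 285 and 285 RPKM at 2 h, against 31.1, 41.7 and 21.8 RPKM at 0 h (3.15). Traf1 (4.38), a signalling adaptor, and Irak3 (2.15), an inhibitory kinase relative, rose with them. Tlr4 itself rose a little, to 4.36, 8.36 and 4.94 RPKM at 2 h, against 2.89, 6.25 and 3.02 RPKM at 0 h (0.51). M3 was the highest at both times, and the groups overlapped. Cd180, which encodes a homologue that restrains TLR4 in some cells, fell by 1.04 on the log2 scale. Of 17 inflammasome and IL-1 processing genes 5 rose and 5 fell. Nlrp3, the sensor gene of the inflammasome that matures IL-1β, had 183, 161 and 212 RPKM at 2 h and 8.28, 12.3 and 6.29 RPKM at 0 h (4.34), and Mefv (2.89) and Casp4 (2.18) rose. Txnip, which encodes a thioredoxin-binding protein, fell to 8.15, 9.58 and 6.21 RPKM at 2 h, against 60.8, 52.0 and 45.3 RPKM at 0 h (-2.66), and Pycard, the adaptor gene, fell by 0.85. Casp1 was not called (-0.01). In the prostaglandin and leukotriene list Ptgs2, which encodes the inducible cyclooxygenase, rose to 190.3, 158 and 216 RPKM at 2 h, against 4.26, 3.98 and 1.49 RPKM at 0 h (5.75), and the synthase gene Ptges rose by 2.79. Tbxas1 (-0.68) and Hpgds (-0.62, not called after median-of-ratios scaling) were among 3 of 13 that fell (1 after median-of-ratios scaling).

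Targets of cAMP signalling fell at least 2-fold in 8 of 21 tested members and rose at least 2-fold in 3. Over all genes these shares were 4.29% and 5.17%. Sik1 and Nr4a2 were among the 12 largest falls. The list as a whole had no smaller share of rises than all genes. Its members were chosen with earlier results of these data known, so the shares are no test. Of 21 tested cAMP and CREB targets 10 fell, 4 rose and 7 were not called, where 36.1% of all genes fell and 10.9% rose, with a median of -0.09 (0.13 after median-of-ratios scaling, where 9 fell and 5 rose). Sik1, which encodes a kinase that restrains CREB co-activators, had 0.576, 0.15 and 0.421 RPKM at 2 h and 10.8, 7.77 and 10.6 RPKM at 0 h. All 3 cultures fell below 1 RPKM at 2 h, and the difference of -3.55 (SE 0.13, adjusted p = 1.35e-05) was the largest fall of all. For genes that the agonist itself raises, a fall with time since MPH and a fall with LPS cannot be told apart here. Nr4a2, an orphan nuclear receptor gene, had 2.86, 1.05 and 1.11 RPKM at 2 h and 28.7, 11.8 and 14.4 RPKM at 0 h (-3.11, SE 0.11), and M2 was the highest culture at both times. Rgs2 (-2.45), which encodes an inhibitor of G protein signalling, the angiogenic growth factor gene Vegfa (-1.80), Per1 (-1.99) and Nr4a1 (-1.65) fell too. Thbs1, the matrix glycoprotein gene thrombospondin-1, did not follow them. Its values were 402, 379 and 167 RPKM at 2 h and 292, 379.8 and 189 RPKM at 0 h, with a difference of 0.09 (SE 0.12) that was not called. Crem fell by 0.73 (not called after median-of-ratios scaling). Pde4b, the gene of a cAMP-degrading phosphodiesterase, rose to 53.4, 50.7 and 42.9 RPKM at 2 h, against 12.8, 15.2 and 5.95 RPKM at 0 h (2.16), and Gem (3.02) and the epidermal growth factor relative Areg (3.36) rose with it.

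The promoter of Nr4a2 is shown because this gene had the smallest p of all for a different response under MPH and DMSO. The 250 bases lie at chr2:57124004-57124253 on the minus strand (RefSeq, GRCm38.p6), and capitals mark 4 matches to TGACG, the core of the cAMP response element, on either strand.
Nr4a2: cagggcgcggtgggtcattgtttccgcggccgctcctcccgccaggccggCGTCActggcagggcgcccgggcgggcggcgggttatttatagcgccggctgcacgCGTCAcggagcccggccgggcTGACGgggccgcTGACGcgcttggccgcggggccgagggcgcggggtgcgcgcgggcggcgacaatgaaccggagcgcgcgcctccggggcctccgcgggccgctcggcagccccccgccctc
The same core was in 29.4% of the windows of all genes tested. A match to TGACGTCA also holds this core.

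In the receptors, G proteins and kinases through which cAMP is made and read, 6 of 20 members rose and 8 fell. This share of falls was near the 36.1% of all genes, and 1 fall was called after median-of-ratios scaling. Receptor genes for adenosine and prostaglandin E2, ligands that can raise cAMP, were higher. Adora2b, an adenosine receptor gene, had 23.3, 41.5 and 48.3 RPKM at 2 h and 5.23, 12.6 and 7.28 RPKM at 0 h (2.13), and Adora2a rose by 3.18 (SE 0.44). The prostaglandin E2 receptor genes Ptger4 (1.96) and Ptger2 (1.94) rose as well, Ptger4 to 3.04, 3.10 and 2.92 RPKM at 2 h, against 0.427, 0.401 and 0.386 RPKM at 0 h. Its 3 cultures lay close together at each time. Gnas (-0.11) and Prkar1a (-0.02), which encode the Gs subunit and a PKA regulatory subunit, were not called.

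Immediate-early genes split by family member, with 9 of 21 higher and 6 lower. Fos had 6.00, 1.75 and 2.29 RPKM at 2 h and 42.3, 35.9 and 34.7 RPKM at 0 h (-3.46, SE 0.23), Fosb fell by 2.59 and Fosl2 by 2.02. Klf4, a factor of monocyte differentiation, had 5.66, 0.574 and 3.08 RPKM at 2 h and 35.8, 10.2 and 25.4 RPKM at 0 h (-2.91). Maff (3.37), Egr2 (3.89), Klf6 (1.81) and Atf3 (1.47) rose, Junb rose by 0.89, and Jun was not called (-0.08, SE 0.42). The other falls among the 12 largest were those of Thbd (-3.34), which encodes the anticoagulant thrombomodulin, the receptor genes Cd300lb (-3.32), Lpar6 (-2.93) and Cnr2 (-2.78), the glucocorticoid-induced gene Tsc22d3 (-2.92), the arrestin-domain gene Arrdc3 (-2.91) and the kinase gene Nuak2 (-2.81). Cd300lb had 6.58, 1.87 and 2.44 RPKM at 2 h and 32.2, 39.7 and 36.7 RPKM at 0 h, and Tsc22d3 had 2.83, 2.68 and 2.96 RPKM at 2 h and 20.6, 31.9 and 22.9 RPKM at 0 h. In both genes every culture was several-fold lower at 2 h.

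Genes of macrophage identity fell in 10 of 19 members and rose in 2, with a median of -0.21 that lay close to the -0.23 of all genes (7 fell after median-of-ratios scaling). The lineage factor genes Cebpa (-1.75), Tfeb (-1.95) and Maf (-0.98) fell, as did the lipase gene Lpl (-0.58). Cebpa stood at 4.88, 1.17 and 5.94 RPKM at 2 h and 15.2, 5.53 and 22.5 RPKM at 0 h, where M3 was the lowest at both times and its 0 h value lay below the 2 h value of M4. Csf1r, the M-CSF receptor gene, was not called at 203, 250.5 and 167 RPKM at 2 h and 196, 278 and 175 RPKM at 0 h. Cell cycle genes fell in 17 of 24 members and rose in 1, with a median of -0.52 (10 fell after median-of-ratios scaling). Ccnd1, the cyclin of the early G1 phase, had 3.12, 15.2 and 5.84 RPKM at 2 h and 13.3, 68.7 and 24.9 RPKM at 0 h (-2.02), and Ccne1 (-1.17) and Cdk4 (-0.55) fell. M3 was the highest for Ccnd1 at both times, and its 2 h value exceeded the 0 h value of M2. Mki67, a proliferation marker, was the member that rose (0.96), to 30.4, 52.1 and 33.5 RPKM at 2 h, against 12.9, 30.5 and 17.5 RPKM at 0 h.

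Metabolic and stress lists moved in both directions. The shares that fell in the glycolysis, cholesterol, clock and heat shock lists were below the 36.1% of all genes. Of 24 glycolysis and hypoxia genes 5 rose and 6 fell (7 rose and 1 fell after median-of-ratios scaling). Hexokinase gene Hk2 (1.39), Hif1a (1.35), which encodes the oxygen-regulated factor HIF-1α, and Ero1a (0.80) rose, and the lipid droplet gene Hilpda fell (-0.87). Ldha (-0.01), which encodes a lactate dehydrogenase subunit, was not called. Of 20 cholesterol and fatty acid synthesis genes 4 rose and 6 fell, with falls of Scd2 (-0.93), Dhcr7 (-0.98), Fasn (-0.72) and Lss (-0.72). Of 11 LXR receptor and target genes 2 rose and 6 fell (3 of each after median-of-ratios scaling). The cholesterol exporter genes split there. Abca1 rose to 15.8, 31.2 and 17.9 RPKM at 2 h, against 5.90, 11.2 and 7.37 RPKM at 0 h (1.34), and Abcg1 fell to 4.51, 2.09 and 3.37 RPKM at 2 h, against 11.7, 8.14 and 11.1 RPKM at 0 h (-1.53). The nuclear receptor genes Pparg (-1.13) and Rxra (-0.92) fell. Of 12 clock and Txnip-type genes 4 fell and 2 rose, with falls of Tef (-0.85) and Nr1d2 (-0.55, not called after median-of-ratios scaling). Of 14 heat shock and unfolded protein response genes 1 rose, the chaperone gene Hspa5 (0.55), and 4 fell, among them Ddit3 (-1.10), Trib3 (-1.01) and Sesn2 (-1.09).

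Effector and surface genes were higher across several lists. Of 17 antimicrobial, redox and metal genes 11 rose and 2 fell (13 and 0 after median-of-ratios scaling), with a median of 1.06. Acod1, whose enzyme makes itaconate, had 514, 1523 and 751 RPKM at 2 h and 0.83, 21.7 and 1.84 RPKM at 0 h (7.68), and Sod2 (2.85), the cystine transporter gene Slc7a11 (3.42) and Txnrd1 (1.06) rose. Nos2, the inducible nitric oxide synthase gene, did not pass the filter and is listed at 0.203, 46.3 and 6.74 RPKM at 2 h, against 0.00731, 0.163 and 0.0176 RPKM at 0 h. M3 stood at more than 100 times the level of M2 at 2 h. Of 21 co-stimulation, antigen presentation and adhesion genes 16 rose and 0 fell. Icosl (3.44), a T cell co-stimulatory ligand, the lectin receptor gene Clec4e (3.66), the adhesion gene Icam1 (4.09) and the early activation marker Cd69 (5.47) led them, Icam1 with 131, 244 and 270.2 RPKM at 2 h and 8.10, 17.0 and 11.1 RPKM at 0 h. Of 13 genes of the TNF superfamily 7 rose and 5 fell (3 fell after median-of-ratios scaling), with rises of Tnfsf9 (5.64), Cd40 (4.97), Fas (2.49) and Tnfrsf1b (2.10).

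Survival genes rose in 10 of 19 members and fell in 4 (2 fell after median-of-ratios scaling), with rises of Cflar (4.07), an inhibitor of caspase-8, Birc3 (2.48), Bcl2a1d (3.41) and the kinase gene Pim1 (2.00). Bcl2a1d has near-identical copies, so its value is uncertain. Of 18 growth factor, matrix and repair genes 14 rose and 2 fell, with a median of 2.31. Mmp13, a collagenase gene, had 56.7, 75.0 and 63.7 RPKM at 2 h and 4.02, 1.33 and 1.22 RPKM at 0 h (4.75). Edn1 (4.06), which encodes a vasoconstrictor, Pdgfb (3.39), a growth factor of mesenchymal cells, and Inhba (3.14), which encodes a subunit of activin, rose with it. Among 18 G protein regulators 5 rose and 7 fell, a share of falls near the 36.1% of all genes. The receptor genes Gpr84 (3.62) and Ptafr (2.26) rose, as did Pik3r5 (1.69), a subunit gene of the PI3Kγ kinase, and Rasgrp3 fell (-1.61).

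**Figure D3:**
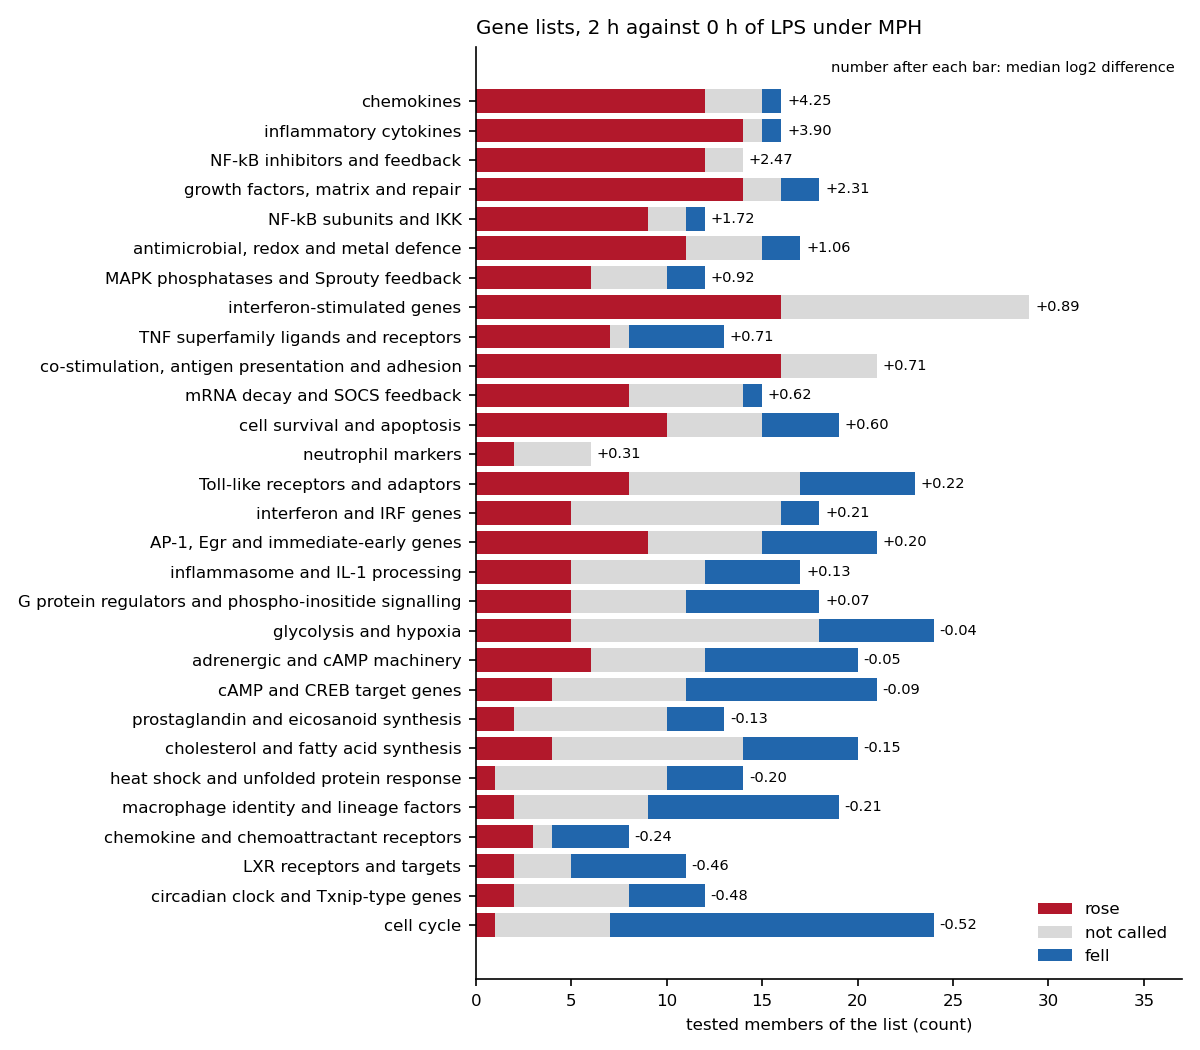
Number of tested members that rose, were not called or fell at 2 h against 0 h of LPS under MPH (x axis) in each of 29 gene lists (y axis), ordered by the median log2 difference printed after each bar. Chemokines and inflammatory cytokines stand at the top with medians of 4.25 and 3.90, and cell cycle genes at the bottom with -0.52, where the median of all genes is -0.23.

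Most of the large changes were greater at 2 h than at 1 h. In M2 and M3, 390 of the 495 rises were higher at 2 h than at 1 h in both cultures and 45 were lower in both. Of the 411 falls, 369 were lower at 2 h than at 1 h in both cultures and 2 were higher. Both sets were chosen by the same 2 h values, which favours such counts, so the counts are no test. The shares over all genes tested were not counted. Il1b stood at 0 h, 1 h and 2 h at 1.22, 934 and 1386 RPKM in M2 and at 9.48, 633 and 1810.0 RPKM in M3. Tnf had its highest value at 1 h, with 1.48, 1425 and 848 RPKM in M2 and 3.92, 911 and 302 RPKM in M3. Cxcl2 did the same, with 0.592, 1324 and 785 RPKM in M2 and 4.32, 1688 and 563 RPKM in M3. Fos rose before it fell, with 42.3, 71.1 and 6.00 RPKM in M2 and 35.9, 48.0 and 1.75 RPKM in M3. The 1 h library labelled M4 was left out of these counts because its values went against its label. It held Thbs1 at 4.24 RPKM, where M2 and M3 had 372 and 626 RPKM at 1 h, and Nr4a2 at 0.113 RPKM, where M2 and M3 had 11.0 and 4.64 RPKM. The 0 h and 2 h libraries of M4 did not stand apart in these genes.

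**Figure D4:**
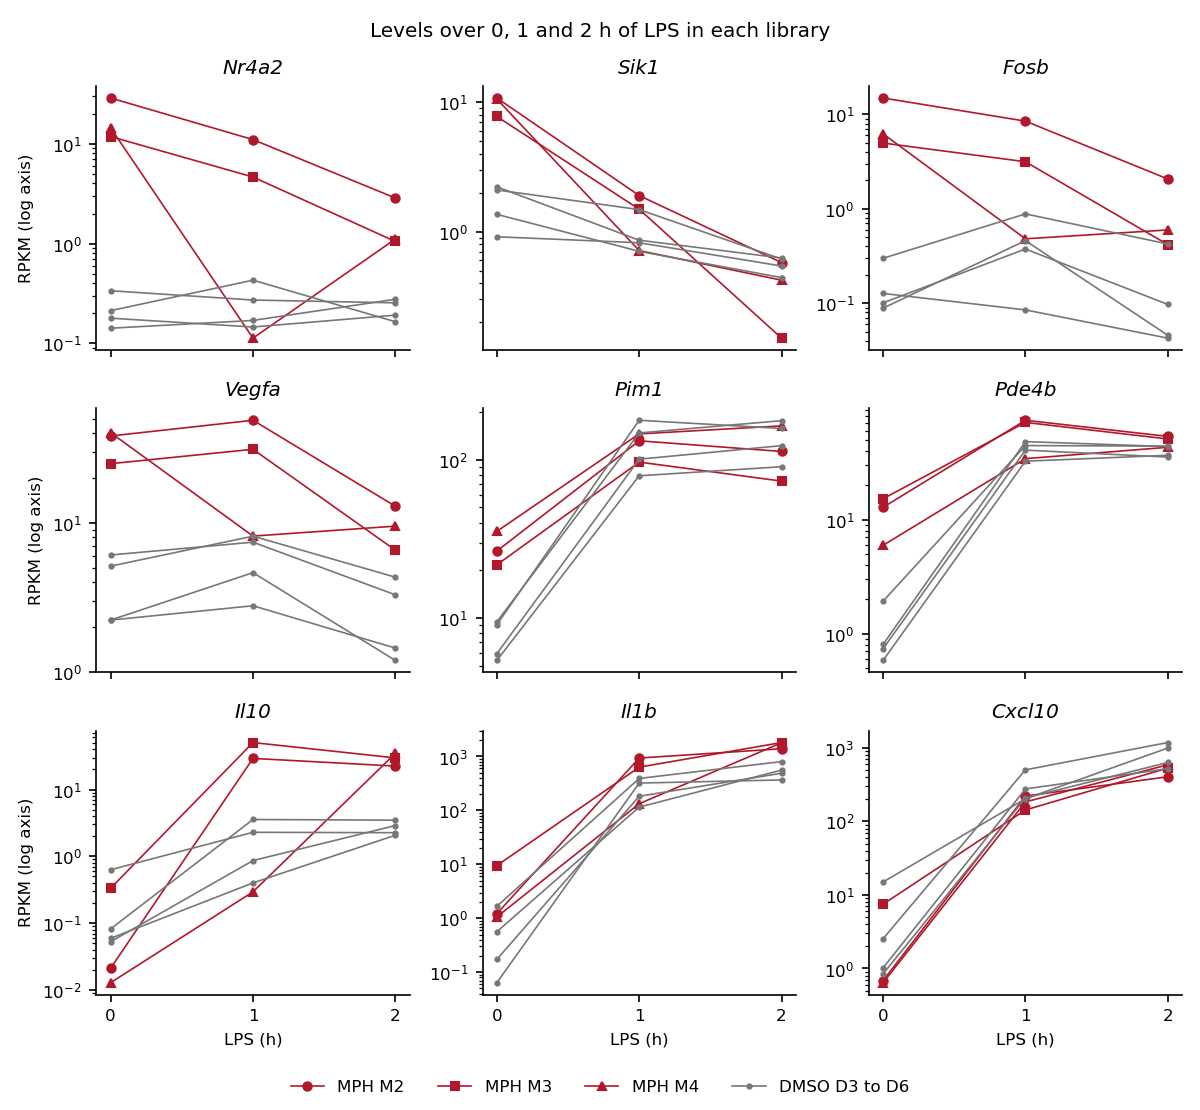
RPKM on a log axis (y axis) at 0, 1 and 2 h of LPS (x axis) in each library of MPH cultures M2, M3 and M4 and of DMSO cultures D3 to D6, for 9 genes. Nr4a2, Sik1, Fosb and Vegfa fall from high 0 h levels in the MPH cultures, and the 1 h library labelled M4 (triangle) lies with the DMSO libraries in Nr4a2, Vegfa and Il10.

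The LPS response under MPH was compared with that under DMSO. The 2 responses come from different cultures and correlated across 9572 genes at 0.91, a description with no test. Of the 495 rises under MPH 465 were also called higher in D3 to D6, and of the 411 falls 389 were called lower, where 11.6% of all genes tested were called higher and 51.3% lower under DMSO. The difference between the responses was tested itself, as the interaction of time and treatment over 14 libraries. It was called for 134 of 10128 genes (1.32%), 66 with a higher response under MPH (0.652%) and 68 with a lower one (0.671%), and 1204 had an unadjusted p under 0.05. The responses of the 3 MPH and 4 DMSO cultures did not overlap in 1167 genes (11.5%). Of the 495 rises 40 were among the 134, and of the 411 falls 29. Il1b was not called, with responses of 9.11 under MPH and 9.11 under DMSO. Its 2 h level was 1663 ± 240.1 RPKM with MPH (SD, n = 3) and 554 ± 184 RPKM with DMSO (SD, n = 4). At 0 h it stood at 1.22, 9.48 and 1.06 RPKM in M2, M3 and M4. In D3, D4, D5 and D6 it stood at 0.064, 0.563, 0.173 and 1.67 RPKM. The values of D3 and D5 lay below the value added before the logarithm. The size of the Il1b response under DMSO, and so its match with that under MPH, depends on this added value.

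The 7 smallest p all belonged to genes with a lower response under MPH, and in each of them the mean of the MPH cultures was higher before LPS. In 6 of the 7 every MPH culture was above every DMSO culture at 0 h, and in Ier2 M2 lay below D5 and D6. Nr4a2 fell under MPH by 3.11 on the log2 scale and was not called under DMSO (0.01), a difference of -3.12 (SE 0.16, adjusted p = 0.000133). Its level at 2 h was 1.67 ± 1.03 RPKM with MPH and 0.222 ± 0.0524 RPKM with DMSO, and at 0 h it was 18.3 ± 9.12 RPKM with MPH and 0.218 ± 0.0844 RPKM with DMSO (SD, n = 3 with MPH and 4 with DMSO). Single DMSO libraries held Nr4a2 at 0.142 to 0.337 RPKM, below the value added before the logarithm. A fall under DMSO could therefore not show in full, and the difference rests on the fall in the MPH cultures. Pim1, which encodes a survival kinase, reached similar levels at 2 h, 117 ± 45.2 RPKM with MPH and 137 ± 38.4 RPKM with DMSO. Its 0 h levels were 27.8 ± 6.92 RPKM with MPH and 7.47 ± 2.10 RPKM with DMSO, so the response was 2.00 against 4.10, a difference of -2.10 (SE 0.13). Fosb (-2.56), Sik1 (-2.57), Nuak2 (-1.87), the immediate-early gene Ier2 (-1.90) and the receptor gene Gpr132 (-1.78) were the other 5. Fosb had the same limit as Nr4a2, with 0.0427 to 0.424 RPKM in the DMSO libraries. Gpr132 was not called under MPH (0.30) and rose by 2.08 under DMSO, with 0 h levels of 12.4 ± 5.70 RPKM with MPH and 1.69 ± 0.74 RPKM with DMSO. B3gnt2, a glycosyltransferase gene and the eighth in order, had a higher response under MPH (1.13, SE 0.11). Its 2 h level was 18.9 ± 2.30 RPKM with MPH and 20.8 ± 3.50 RPKM with DMSO, and its 0 h level 5.54 ± 0.804 RPKM with MPH and 14.2 ± 3.57 RPKM with DMSO.

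Of the 68 genes with a lower response 37 had an MPH mean at 0 h at least 2-fold above the DMSO mean, and 8 had such a mean at 2 h. Of the 66 with a higher response 24 had an MPH mean at 2 h at least 2-fold above the DMSO mean, and 11 had an MPH mean at 0 h at least 2-fold below it. These 0 h and 2 h values are part of the interaction test and add no independent evidence. Over all genes 1.32% were called. Among the lists, 6 of 21 cAMP targets were called, 5 of 21 immediate-early genes, 3 of 19 survival genes and 3 of 18 G protein regulators. Every other list had at most 2, with 2 of 16 cytokine genes and 0 of 29 interferon-stimulated genes. The last count is close to the share over all genes. The values in parentheses that follow are the response under MPH minus that under DMSO. Other genes with a lower response, chosen after their values were seen, were Pde4b (-2.64), Junb (-2.34), Cebpb (-2.10), Zfp36 (-2.10), the dendritic cell maturation marker Cd83 (-2.14) and Cd14 (-1.12). Il10 had the largest higher response (3.36, adjusted p = 0.00475), with 5.58 under MPH and 2.22 under DMSO, and 2 h levels of 29.0 ± 6.20 RPKM with MPH and 2.67 ± 0.644 RPKM with DMSO. Il1a (1.57), Ccl3 (1.84), Inhba (1.30), Ptger4 (1.29) and Tlr4 (1.66) also responded more under MPH. Tlr4 was higher at 2 h under MPH, whereas under DMSO it fell (-1.14).

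The number of interaction calls was 84, 39 and 34 without M2, M3 and M4, and 160, 35, 32 and 53 without D3, D4, D5 and D6. Without the pairing by culture (no replicate block) it was 9. The responses of some single MPH and DMSO cultures also deviated from their group means together. The highest correlations over genes were 0.66 for M2 with D3, 0.61 for M3 with D4 and 0.53 for M4 with D5. M4 with D6 had 0.39 and M3 with D6 0.17, and all other pairs were negative, down to -0.48 for M2 with D6. Taking deviations from group means by itself pushes some pairs to negative values. The labels give no shared number or day for such pairs, and the test treats all 7 cultures as separate. Of 31 genes named here that were called in the interaction, 13 kept the call in every run made with 1 of the 7 cultures left out, among them the 8 with the smallest p and Il10, Cd83, Pde4b, Junb and Tlr4. The other 18, which include Ccl3, Il1a, Cd14, Cebpb, Zfp36, Inhba and Ptger4, lost it without at least 1 culture. Fosb did not pass the filter on low values without M2 and has no value for that run. With the 1 h libraries in the fit, the library labelled M4 included, Il10 lost its call, as did Ccl3, Cd14, Il1a, Inhba, Thbd, Tnfaip2 and Vegfa.

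**Figure D5:**
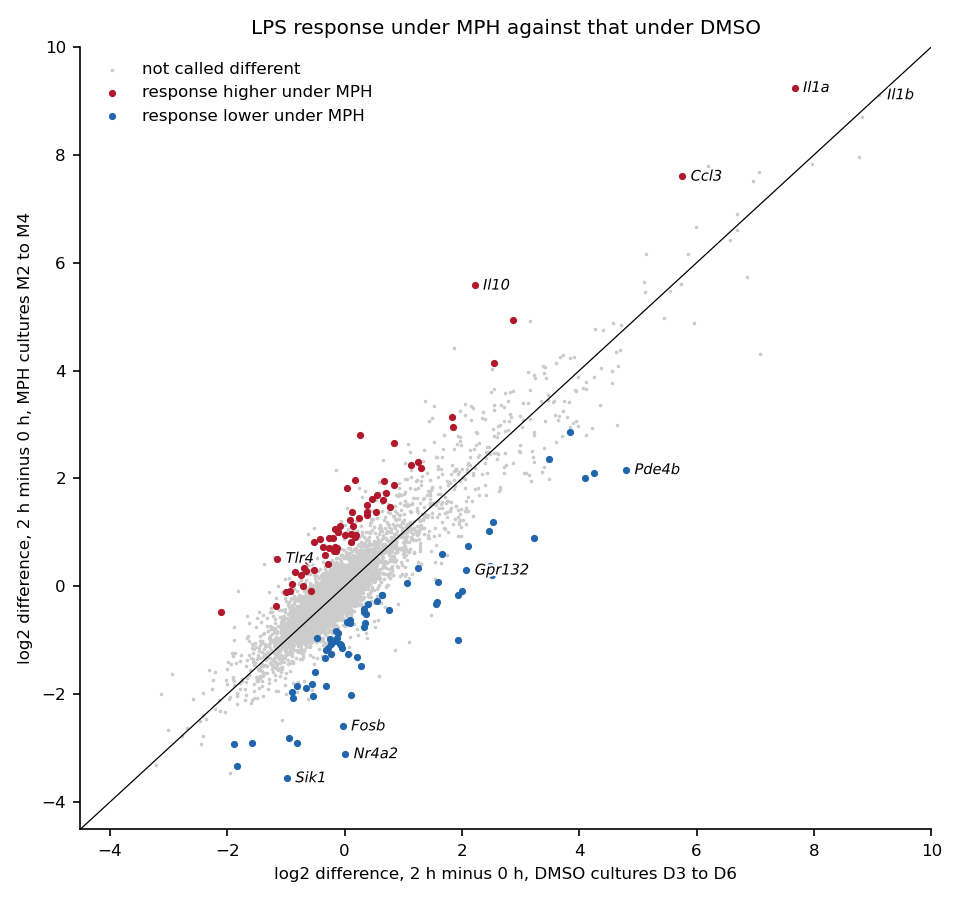
Log2 difference of 2 h minus 0 h of LPS in MPH cultures M2 to M4 (y axis) against that in DMSO cultures D3 to D6 (x axis), 1 point per gene, with the line of equal responses. Of the genes called different, 66 lie above the line and 68 below it, Nr4a2 with -3.11 under MPH and 0.01 under DMSO and Il10 with 5.58 under MPH and 2.22 under DMSO. The DMSO libraries held Nr4a2 at 0.142 to 0.337 RPKM, too low for a fall to show in full.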

How the data were processed

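RNA of all libraries was sequenced as 50-base reads. The authors deposited 1 table of RPKM values with 44401 transcript lines and 24761 symbols, mapped to mm9 with HISAT2 per the submitters' processing notes, with no versions. The counting program, annotation and use of strand are named by neither the labels nor the file header, so overlapping and antisense genes cannot be told apart. Each symbol was represented by the line with the highest mean, log2(RPKM + 0.5) was tested with limma 3.58.1 (trend; R 4.3.3), genes needed 1 RPKM in 3 libraries, and p-values were adjusted by Benjamini-Hochberg. Replicates were paired by culture. Deviations from the group mean correlated between the times at 0.74 (M2), 0.78 (M3) and 0.79 (M4), and at -0.5 to -0.25 across names. Centring on the group mean makes values across names negative when those of the same name are positive, so their sign adds nothing. The interaction was fitted over 14 libraries. The fits were also run on simulated libraries without differences between cultures, unlike these data, so those runs do not vouch for the calls. Named genes were the largest changes, up to 4 genes per list and the 8 smallest interaction p. Another 44 were chosen after their values were seen. Members and lists were chosen with earlier results of these data known. Of 598 list genes 595 were found and 491 tested, 201 of them higher and 123 lower. Reads of near-identical genes may be split between copies. Promoters came from RefSeq (GRCm38.p6) by symbol. Alternatives were other pseudocounts, filters, scaling, transcript sums, fits and left-out cultures. The 6 h time was not analysed here.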

Additional observations from a re-analysis of the deposited data

Results flagged for a closer look

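The test of the difference between the LPS responses under MPH and under DMSO flagged 31 of the genes named above. The values are the response under MPH minus that under DMSO, on the log2 scale. Lower responses under MPH were those of Nr4a2 (-3.12), Dusp5 (-2.92), Pde4b (-2.64), Sik1 (-2.57), Fosb (-2.56), Junb (-2.34), Cd83 (-2.14), Fosl2 (-2.13), Klf4 (-2.1), Pim1 (-2.1), Zfp36 (-2.1), Cebpb (-2.09), Ier2 (-1.9), Nuak2 (-1.87), Gpr132 (-1.78), Thbd (-1.5), Arrdc3 (-1.32), Vegfa (-1.25), Cd14 (-1.12), Tsc22d3 (-1.04) and Tnfaip2 (-0.975). Higher responses under MPH were those of Il10 (3.36), Ccl3 (1.84), Tlr4 (1.66), Il1a (1.57), Inhba (1.3), Ptger4 (1.29), B3gnt2 (1.13), Ptafr (1.13), Mki67 (0.852) and Hk2 (0.848).

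A library stood far from the other 3 in 5 groups of DMSO values. The values were 13.6 RPKM for Gpr132 and 0.424 RPKM for Fosb at 2 h, and 2.79 RPKM for Gpr132, 19.5 RPKM for B3gnt2 and 0.631 RPKM for Il10 at 0 h. The Fosb value came from culture D3, and all the others came from culture D4. Chance flags about 1 in 20 groups. Groups that share a culture are not independent, so this rate cannot be set directly beside these flags.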

How the results depend on the processing

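The count of genes that differed at 2 h against 0 h under MPH (4496; 1040 higher and 3456 lower) was 2636 with a filter of 5 RPKM (1890 lower), 2960 with median-of-ratios scaling (1462 lower) and 2121 in a fit of 21 libraries without the pairing (611 higher, 1510 lower). Without the replicate block it was 866 (384 higher, 482 lower). With 1 culture left out it lay between 1736 and 4746, with 655 to 1165 higher and 1081 to 3581 lower, and at least 2-fold changes, 906 in all, numbered 784 to 1214 (532 with the filter of 5 RPKM). These runs kept genes with 1 RPKM in 2 libraries. The 134 interaction calls became 53 with no filter, 86 with the filter of 5 RPKM, 9 without the replicate block, 434 with 7 DMSO cultures and 32 to 160 with 1 culture left out. No called gene named here changed sign under any alternative. Uncalled genes did. With median-of-ratios scaling Casp1 stood at 0.21, Cebpb at 0.13, Csf1r at 0.16, Cyld at 0.16, Gnas at 0.11, Jun at 0.13, Ldha at 0.21 and Prkar1a at 0.20. With 1 culture left out Casp1 ranged over -0.21 to 0.24, Cebpb over -0.23 to 0.13, Chuk over -0.036 to 0.056, Cyld over -0.13 to 0.062, Jun over -0.83 to 0.38, Ldha over -0.056 to 0.025, Prkar1a over -0.074 to 0.049 and Thbs1 over -0.094 to 0.23. The causes were not tested. With 3 cultures and 14.2 to 59.6 M reads a library, genes under 1 RPKM were mostly not tested.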

Other observations

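Some genes not described above reached high levels at 2 h. Sqstm1, which encodes the autophagy adaptor p62, averaged 1055 ± 457 RPKM at 2 h and 364 ± 168 RPKM at 0 h under MPH (SD, n = 3 each). Plek, the gene of the platelet and leukocyte C kinase substrate pleckstrin, averaged 587 ± 82.9 RPKM at 2 h and 70.3 ± 22.2 RPKM at 0 h. Sdc4, a heparan sulfate proteoglycan gene, averaged 241 ± 34.1 RPKM at 2 h and 16.7 ± 6.79 RPKM at 0 h. Saa3, an acute-phase gene with near-identical relatives, averaged 643 ± 784 RPKM at 2 h and 26.9 ± 44.8 RPKM at 0 h, with an SD above the mean at both times.

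Several list members did not pass the filter on low values and have no test. The formyl peptide receptor gene Fpr1 had 0.851, 12.5 and 3.02 RPKM at 2 h in M2, M3 and M4, against 0.0211, 0.612 and 0.114 RPKM at 0 h. Rapgef3, which encodes the cAMP sensor EPAC1, had 0.296, 0.17 and 0.261 RPKM at 2 h, against 0.844, 2.31 and 2.45 RPKM at 0 h. Egr1, an immediate-early gene, had 7.86, 0.411 and 1.91 RPKM at 2 h, against 0.191, 0.0203 and 0.47 RPKM at 0 h.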
